A study of Mus musculus with 32 samples.

Results

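The genes of the CD3 complex and of proximal T-cell receptor (TCR) signalling were followed through sorted donor T cells of a mouse graft-versus-host disease experiment. They are 9 genes chosen by symbol, Cd3d, Cd3e, Cd3g, Cd247, Lck, Zap70, Lat, Cd5 and Cd6, of 16741 genes in the table, and all 9 were measured. Cells came from spleen and lymph nodes. Donors were C57Bl6 mice and allogeneic hosts were Balb/c, a pair of strains that differ at the major histocompatibility genes, and the strain of the syngeneic hosts is not given in the sources used here. Bulk RNA sequencing gave 31 libraries in 10 groups.

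CD4 conventional and CD8 T cells were each sorted from donors before transplantation on day 0 (2 libraries) and after it from syngeneic control hosts (3 libraries), from untreated allogeneic hosts with graft-versus-host disease (4 libraries) and from allogeneic hosts given regulatory T cells (Treg) on day 0 (4 libraries, called Treg-treated here). Treg were sorted on day 0 (2 libraries) and from Treg-treated hosts (3 libraries). The titles place the recovered cells at day 6, whereas the series text gives 8 days. Libraries are named below by their group and their replicate label, which starts with JL019 or JL027. The titles number the hosts of a group, but no label states the number of animals behind a library, so p-values measure the spread between these libraries, which may in part be technical.

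The TCR itself has no signalling tail. Its alpha and beta chains are carried by the CD3 chains gamma, delta and epsilon (Cd3g, Cd3d, Cd3e) and by the zeta chain (Cd247), whose tails bear the motifs that the kinase Lck phosphorylates. The kinase Zap70 docks on these motifs and phosphorylates the adaptor Lat, on which the downstream signalling proteins assemble, while CD5 and CD6 are surface receptors of T cells, of which CD5 dampens TCR signalling and marks how strongly a cell was selected on self ligands.

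The genes of the gamma, delta and epsilon chains lie side by side on chromosome 9 (GRCm38.p6 throughout, RefSeq annotation): Cd3g at chr9:44969572-44980431, Cd3d at chr9:44981769-44987052 and Cd3e at chr9:44998735-45009663. Cd3g and Cd3d start head to head with 1337 bases between the genes, and 11682 bases lie between Cd3d and Cd3e. Cd5 (chr19:10718107-10739026) and Cd6 (chr19:10789339-10830062) are neighbours, with 50312 bases between them. Zap70 (chr1:36761798-36782821) and Cd247 (chr1:165779952-165871153) are far apart on chromosome 1, Lck is at chr4:129548344-129573641 and Lat at chr7:126363827-126369705.

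The promoters of the 3 CD3 genes on chromosome 9 are shown because Cd3d and Cd3g varied together in these libraries while Cd3e did so less closely. Each window runs from 250 bases before to 50 bases after a start site of the gene, 5′ to 3′ on the strand of the gene. For Cd3d and Cd3e this site lies inside the gene span given above. Capitals mark matches, on either strand, to AGGAAG, a form of the site that ETS factors bind, and to CANNTG, the E box, where N is any base. No match of one overlapped a match of the other.
Cd3g, minus strand, chr9:44980382-44980681: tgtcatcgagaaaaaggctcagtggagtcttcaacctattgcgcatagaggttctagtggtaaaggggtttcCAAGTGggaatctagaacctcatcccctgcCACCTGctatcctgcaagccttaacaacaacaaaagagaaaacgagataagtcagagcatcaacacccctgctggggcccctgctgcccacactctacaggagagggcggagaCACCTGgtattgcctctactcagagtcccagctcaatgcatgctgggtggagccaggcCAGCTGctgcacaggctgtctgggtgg
Cd3d, plus strand, chr9:44981536-44981835: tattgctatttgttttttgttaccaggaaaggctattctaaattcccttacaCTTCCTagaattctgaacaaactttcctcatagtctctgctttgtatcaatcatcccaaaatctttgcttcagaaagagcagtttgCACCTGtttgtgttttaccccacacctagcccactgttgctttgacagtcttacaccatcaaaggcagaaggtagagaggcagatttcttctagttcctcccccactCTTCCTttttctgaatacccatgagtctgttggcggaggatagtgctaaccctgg
Cd3e, minus strand, chr9:45009562-45009861: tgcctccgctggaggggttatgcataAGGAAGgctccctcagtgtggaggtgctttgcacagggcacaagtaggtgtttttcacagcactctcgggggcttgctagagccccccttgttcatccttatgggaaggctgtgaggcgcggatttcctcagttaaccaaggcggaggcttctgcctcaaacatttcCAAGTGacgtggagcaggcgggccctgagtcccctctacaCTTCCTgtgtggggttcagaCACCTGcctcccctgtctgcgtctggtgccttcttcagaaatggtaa
The Cd3g window held 0 matches to AGGAAG and 4 to CANNTG, the Cd3d window 2 and 1, and the Cd3e window 2 and 2. None of the 3 windows held TGTGGT, a form of the site that RUNX factors bind, or TATAAA, the TATA box, on either strand. Of all 32851 RefSeq promoter windows of this length, 35.4% held AGGAAG, 72.3% held CANNTG, 16.8% held TGTGGT and 13.6% held TATAAA, so these matches are a description and not sites. Promoter entries were matched for 8 of the 9 members.

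The values are read as estimated counts that the authors scaled between libraries, and are called normalised counts here. They are not corrected for gene length, so levels are compared within a gene and not between genes. A change is a difference of group means of log2(value + 1), with its standard error (SE), and is called where the adjusted p of limma, a linear model with moderated variances fitted to all 16741 genes and all 31 libraries, was under 0.05 after Benjamini-Hochberg adjustment over all genes of that comparison. In bulk libraries, fewer cells of a type and less RNA per cell cannot be told apart.

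The labels were checked against marker genes. Cd4 ran from 8722 to 21480 normalised counts in CD4 libraries other than CD4 syngeneic JL019-2 and from 8.76 to 92.8 in CD8 libraries, and Cd8a from 14160 to 61114 in CD8 libraries. Foxp3, the defining factor of Treg, was lower in the libraries labelled Treg than in CD4 cells on day 0, at 198 to 442 against 978 to 1145 normalised counts. In Treg-treated hosts it was higher in them, at 265 to 293 against 127 to 178 in CD4 and 109.5 to 236 in CD8 cells, but CD4 cells of allogeneic hosts held 337 to 579. These libraries are therefore called the libraries labelled Treg. That naming rests on Foxp3 alone, as the other listed markers Il2ra and Ikzf2 are not reported here. In CD4 syngeneic JL019-2, 10 myeloid genes made up 10.7% of the summed values, against 0.00619% to 0.336% in the other 30 libraries. Its S100a8 stood at 1511210 normalised counts, where no other library passed 44215, its Cd4 was at 10.7% of the mean of the other CD4 syngeneic libraries, and its Cd8a was 1956. Every member was low in it, from 12.6% (Cd6) to 56.6% (Cd3d) of that mean, and it was the lowest of all 31 libraries for each member except Cd6. Most results that it enters are given with and without it. Since all groups share 1 estimate of the spread, it also bears on comparisons it is not in: with all libraries 20 of the 153 member values over 17 comparisons were called, and without it 32, of which 16 were called both times.

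**Figure D1:**
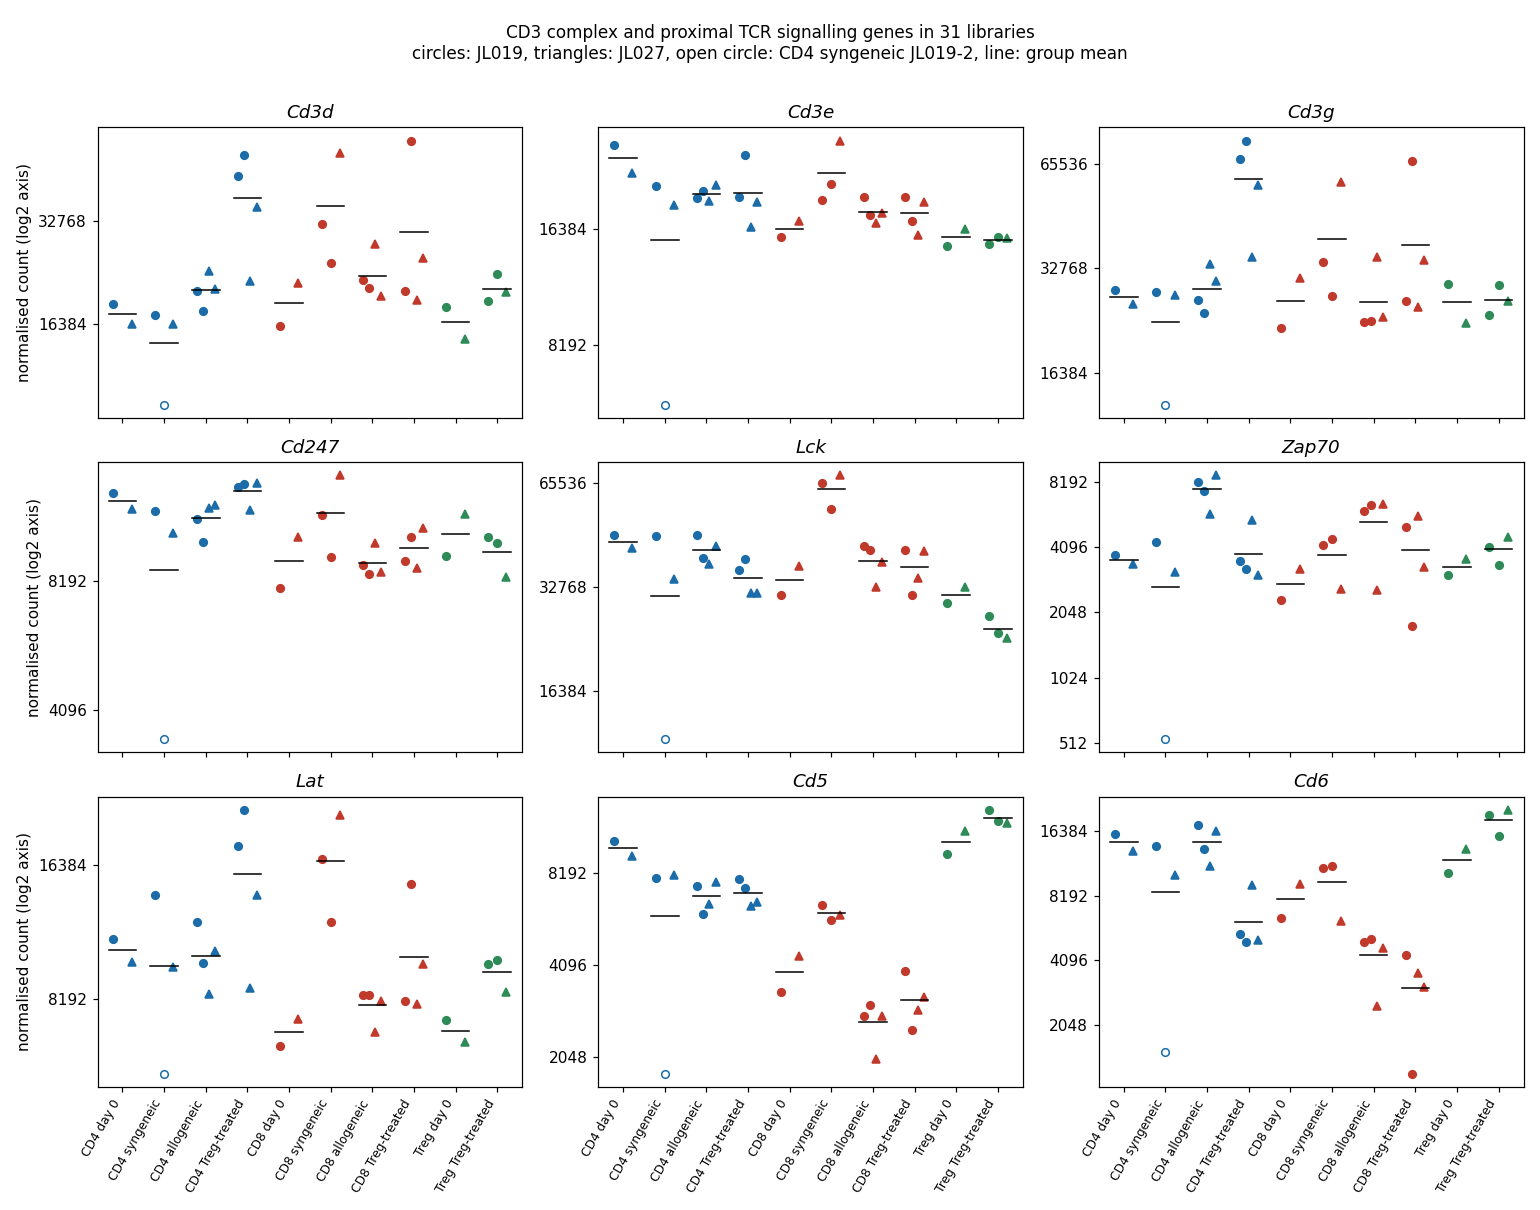
Normalised counts (log2 axis) of the 9 genes in each of 31 libraries by group; circles are JL019 and triangles JL027 libraries, lines are group means and the open circle is CD4 syngeneic JL019-2. Cd5 and Cd6 span the widest range of group means, with the libraries labelled Treg from Treg-treated hosts highest, and the open circle is the lowest point in 8 of the 9 panels.

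The receptors Cd5 and Cd6 varied most between groups. Group means of Cd6 spanned 6.08-fold and those of Cd5 4.66-fold, in both genes highest in the libraries labelled Treg from Treg-treated hosts. Zap70 spanned 2.83-fold, Cd3d 2.64-fold, Cd3g 2.59-fold, Lck 2.55-fold and Lat 2.42-fold. Cd3e (1.63-fold) and Cd247 (1.54-fold) were the most even. The lowest group of both, and of Cd3d, Cd3g and Zap70, was CD4 syngeneic, which holds the library rich in myeloid genes. Leaving that library out, the CD4 syngeneic means were 16908 for Cd3d, 27674 for Cd3g and 3738 for Zap70, and none was then the lowest group mean. When the 10 groups were put in order of their means, neighbours overlapped nearly everywhere: of 9 neighbouring pairs, 2 did not overlap for Cd5, 1 for Lck, 1 for Lat and 0 for each of the other 6 genes. No such count was made over all genes, so these counts only describe the members.

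The delta chain gene Cd3d was highest in CD4 Treg-treated cells, at 38156 ± 12434 normalised counts (SD, n = 4), then in CD8 syngeneic cells (36100 ± 13913, n = 3) and CD8 Treg-treated cells (30270 ± 17370, n = 4). The 7 other groups had means from 14460 (CD4 syngeneic) to 22655 (CD8 allogeneic). The gamma chain gene Cd3g had the same 3 groups on top, at 59147 ± 17701, 39752 ± 16052 and 38298 ± 19474 normalised counts, and 22873 to 28629 in the others. In these top groups the spread was wide, and single libraries such as CD8 Treg-treated JL019-2 (56012 for Cd3d, 66836 for Cd3g) lay far above the others.

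The epsilon chain gene Cd3e was highest in CD4 cells on day 0 (25060 ± 3021 normalised counts, n = 2) and, apart from CD4 syngeneic (15342 ± 8398, n = 3), lowest in the libraries labelled Treg from Treg-treated hosts (15411 ± 344, n = 3). The zeta chain gene Cd247 ran from 13332 ± 874 in CD4 Treg-treated cells (n = 4) to 9016 ± 716 in CD8 allogeneic cells (n = 4), with CD4 syngeneic at 8674 ± 4534 (n = 3). Without the library rich in myeloid genes, the CD4 syngeneic means were 20144 for Cd3e and 11264 for Cd247, in the middle of the other groups.

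Of the kinase genes, Lck set CD8 syngeneic cells apart. It was at 63175 ± 7340 normalised counts there (n = 3), above every library of the next group, CD4 cells on day 0 (44376 ± 2603, n = 2), and lowest in the libraries labelled Treg from Treg-treated hosts (24801 ± 1982, n = 3). The adaptor gene Lat was at 16743 ± 4494 in CD8 syngeneic cells (n = 3), which overlapped CD4 Treg-treated cells (15630 ± 5613, n = 4), and lowest in CD8 cells on day 0 (6907 ± 680, n = 2). Zap70 was highest in the 2 untreated allogeneic groups, at 7544 ± 1282 in CD4 cells (n = 4) and 5349 ± 1840 in CD8 cells (n = 4), and the other groups had means from 2670 to 4010.

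Zap70 was higher in CD4 cells of allogeneic than of syngeneic hosts. It stood at 8147, 7451, 5802 and 8777 normalised counts in the 4 allogeneic libraries, and at 4322, 533 and 3154 in the 3 syngeneic ones. The groups did not overlap, and the lowest value was that of the library rich in myeloid genes. The log2 change was 1.94 ± 0.47 (SE), a 3.85-fold difference, with a limma adjusted p of 0.0044. With CD4 syngeneic JL019-2 left out it was 1.01, with an adjusted p of 0.083, and Zap70 was higher in 4 of 4 allogeneic libraries either way. With only these 2 groups in the model the adjusted p was 0.12.

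Zap70 was the 1 member of 9 called in this comparison, which called 14.6% of all genes (6.69% higher, 7.91% lower, 23.2% without overlap). In the model without CD4 syngeneic JL019-2 limma called 0 members (1 at an unadjusted p under 0.05), where 10.9% of all genes were called. Summed values of the 10 myeloid genes, none of which was at 0 in any library, ran from 6100 to 11787 in the allogeneic and from 80188 to 3632120 in the syngeneic CD4 libraries, and the 6 erythroid genes from 300.5 to 6272 and from 3098 to 315388. Of the 10 myeloid genes 9 were lower, and of the erythroid genes 3, and their part in the change of Zap70 was not tested. Cd6, the other member with a large difference, had a log2 change of 1.27 with an adjusted p of 0.084, and 0.28 without that library. The 7 other members, all 4 CD3 chains among them, were not called. Their medians in allogeneic and syngeneic CD4 cells were 20594 and 16419 normalised counts for Cd3d, 20242 and 18990 for Cd3e, 28224 and 27429 for Cd3g, and 11783 and 10611 for Cd247.

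In CD8 cells, the adaptor Lat and the receptor Cd5 were lower in allogeneic than in syngeneic hosts. Cd5 stood at 2800, 3026, 2024 and 2793 normalised counts in the 4 allogeneic libraries and at 6419, 5768 and 5968 in the 3 syngeneic ones, with no overlap. It fell by 1.20 ± 0.31 (SE) on the log2 scale, with a limma adjusted p of 0.0052. Lat stood at 8378, 8365, 6927 and 8130 normalised counts against 16835, 12204 and 21191, again with no overlap. It fell by 1.04 ± 0.28 (SE), with an adjusted p of 0.0075, which was 0.069 without CD8 syngeneic JL027, the library with the highest Lat of the 3.

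These 2 of 9 members compare with 21.1% of all genes called (10.4% higher, 10.7% lower). Lck and Cd6 were also lower without overlap but missed the threshold, with log2 changes of -0.69 (adjusted p = 0.06) and -1.14 (adjusted p = 0.098). Both passed when CD4 syngeneic JL019-2 was left out of the model, with adjusted p of 0.0013 and 0.011, which made 4 of 9 members lower, where 25.0% of all genes were called. Of all genes, 30.3% did not overlap between these groups. The myeloid genes summed to 8360 to 12654 in the allogeneic and to 38594 to 62645 in the syngeneic CD8 libraries (2 genes higher, 6 lower), and 6 natural killer cell genes to 85130 to 127962 and 8103 to 9749 (1 higher, 3 lower). Most called genes of the natural killer list, which includes Gzma and Eomes, thus fell while its sum rose (median log2 change -1.78). The 7 B cell genes summed to 1152 to 1279 and 3282 to 4075 (0 higher, 1 lower). The part of these 3 lists in these values was not tested. Zap70 was not called in CD8 cells: 3 allogeneic libraries stood at 5980 to 6449 normalised counts, above the 2613 to 4434 of the syngeneic ones, and CD8 allogeneic JL027-1 stood at 2605, below them.

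The change between syngeneic and allogeneic hosts differed between CD8 and CD4 cells for Lck, Cd5 and Cd6, the difference being -1.34 ± 0.37 (SE, adjusted p = 0.034), -1.70 ± 0.43 (adjusted p = 0.02) and -2.41 ± 0.69 (adjusted p = 0.041) on the log2 scale, by limma. Of all genes 4.65% were called for this difference. Lat missed the threshold at -1.20 (adjusted p = 0.083), and passed with the host as a block (adjusted p = 0.038), where 6.71% of all genes were called. After quantile normalisation Lck (-1.16, adjusted p = 0.17) and Cd6 (-2.28, adjusted p = 0.064) were not called, and with only these groups in the model none of the 3 was (adjusted p 0.12 to 0.16). When CD4 syngeneic JL019-2 was left out, Cd5 alone was called, at -0.99 (adjusted p = 0.018; 3.97% of all genes), Lck was -0.76 (adjusted p = 0.071), Cd6 -1.42 (adjusted p = 0.13) and Lat -0.85 (adjusted p = 0.27). Of the other 13 libraries left out 1 at a time, Cd5 lost its call without CD8 syngeneic JL019-1 (adjusted p = 0.052). Lck and Cd6 each kept theirs without CD4 allogeneic JL027-1, CD4 syngeneic JL019-1 or JL027, or CD8 allogeneic JL019-1 or JL019-2, Lck also without CD8 syngeneic JL019-2 and Cd6 without CD8 syngeneic JL027, and lost them otherwise.

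**Figure D2:**
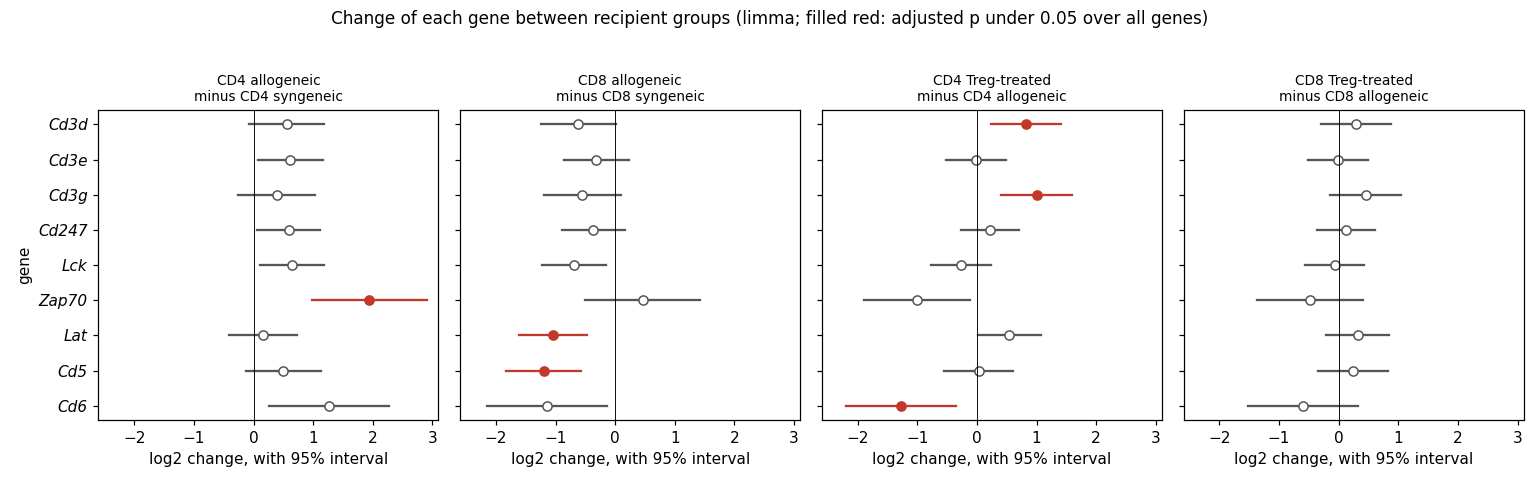
Log2 change of each gene with its 95% interval in 4 comparisons (limma); filled red points had an adjusted p under 0.05 over all genes. Zap70 (1.94) is the filled point among CD4 cells of allogeneic against syngeneic hosts, Lat (-1.04) and Cd5 (-1.20) are those among CD8 cells, Cd3d, Cd3g and Cd6 are those for Treg treatment in CD4 cells, and there is none for Treg treatment in CD8 cells.

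With Treg treatment, CD4 cells of allogeneic hosts had more of the delta and gamma chain transcripts and less Cd6. Cd3g stood at 67781, 76375, 35394 and 57038 normalised counts in the 4 Treg-treated libraries and at 26450, 24334, 33735 and 29998 in the 4 untreated ones. Every Treg-treated library was above every untreated one, by little for JL027-1. Cd3g rose by 1.00 ± 0.29 (SE) on the log2 scale, 2.00-fold, with a limma adjusted p of 0.02. Cd3d stood at 44046, 50822, 21930 and 35825 against 20445, 17913, 23324 and 20744 normalised counts, with Treg-treated JL027-1 inside the untreated range. It rose by 0.83 ± 0.29 (SE), with an adjusted p of 0.039.

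Cd6 stood at 5435, 4993, 9184 and 5066 normalised counts in the Treg-treated CD4 libraries and at 17424, 13457, 11301 and 16365 in the untreated ones, with no overlap. It fell by 1.28 ± 0.45 (SE) on the log2 scale, with a limma adjusted p of 0.043. Zap70, at 3540, 3226, 5475 and 3042 against 8147, 7451, 5802 and 8777 normalised counts, did not overlap either, but its log2 change of -1.01 had an adjusted p of 0.092. Without CD4 syngeneic JL019-2 in the model it passed, at 0.017. Cd3e (16600 to 25572 against 19393 to 21364 normalised counts) and Cd5 (6382 to 7809 against 6021 to 7655) overlapped, and neither was called.

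The 3 of 9 members called compare with 22.2% of all genes called (10.7% higher, 11.5% lower), and 22.2% did not overlap. No member was called without CD4 allogeneic JL019-1 or JL019-2, or without Treg-treated JL019-1, JL019-2 or JL027-2, where the adjusted p of Cd3g was 0.054 to 0.08, and calls over all genes fell too, from 3710 to between 470 and 1446. Cd3g alone was called without CD4 allogeneic JL027-2, with 2285 genes called in all. Within prefix JL019 the log2 differences were 1.31 for Cd3d, 1.5 for Cd3g and -1.56 for Cd6 (2 against 2 libraries, no test), and within JL027 they were 0.35, 0.50 and -1.0. Cd4, the coreceptor gene of these cells, stood at 9108, 8722, 17587 and 9370 normalised counts in the Treg-treated and at 16706 to 21480 in the untreated libraries, JL027-1 again being the one inside the untreated range. The 10 myeloid genes summed to 24532 to 88098 against 6100 to 11787. The 6 erythroid genes summed to 3415 to 37414 against 300.5 to 6272, with a median log2 change of 2.45 and none called (4 at an unadjusted p under 0.05 by limma). The part of both lists in these changes was not tested.

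In CD8 cells 0 of 9 members were called with Treg treatment by limma, also 0 at an unadjusted p under 0.05, where 0.0657% of all genes were called. Cd3g stood at 26406, 66836, 25320 and 34628 normalised counts in the Treg-treated libraries and at 22866, 23080, 35281 and 23688 in the untreated ones, with a log2 change of 0.45 and an adjusted p of 0.54. Cd6 stood at 4333, 1211, 3568 and 3079 against 4975, 5159, 2507 and 4663 normalised counts, with a log2 change of -0.59 and an adjusted p of 0.59. In both genes JL019-2 was the extreme Treg-treated library and JL027-1 the extreme untreated one. A difference of the Treg effect between CD8 and CD4 cells was called for 0 of 9 members (0 at an unadjusted p under 0.05), where 0.00597% of all genes were called.

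Ratios of 2 members within a library do not depend on how libraries were scaled. The Cd3g to Cd3e ratio was 2.13 to 3.40 in CD4 Treg-treated and 1.18 to 1.74 in CD4 allogeneic libraries, a log2 difference of 1.02, with no overlap. The Cd3d to Cd3e ratio was 1.32 to 2.21 against 0.866 to 1.20, a log2 difference of 0.84, with no overlap. Each had a two-sided exact permutation p of 0.0286, the smallest that 4 against 4 libraries allow, and 0.229 after adjustment over 16 such tests. The Zap70 to Lck ratio was 0.152 to 0.203 in CD4 allogeneic and 0.0450 to 0.0938 in CD4 syngeneic libraries, a log2 difference of 1.30 (two-sided exact permutation p = 0.0571, the smallest that 4 against 3 allow; adjusted p = 0.229). Leaving out CD4 syngeneic JL019-2, this difference was 0.95. The same ratio differed by 1.16 in CD8 allogeneic against syngeneic libraries (exact permutation p = 0.114). Treg treatment changed it by -0.74 in CD4 and -0.41 in CD8 cells (exact permutation p = 0.0571 and 0.286), and these 3 comparisons overlapped. None of the 16 tests passed after adjustment.

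**Figure D3:**
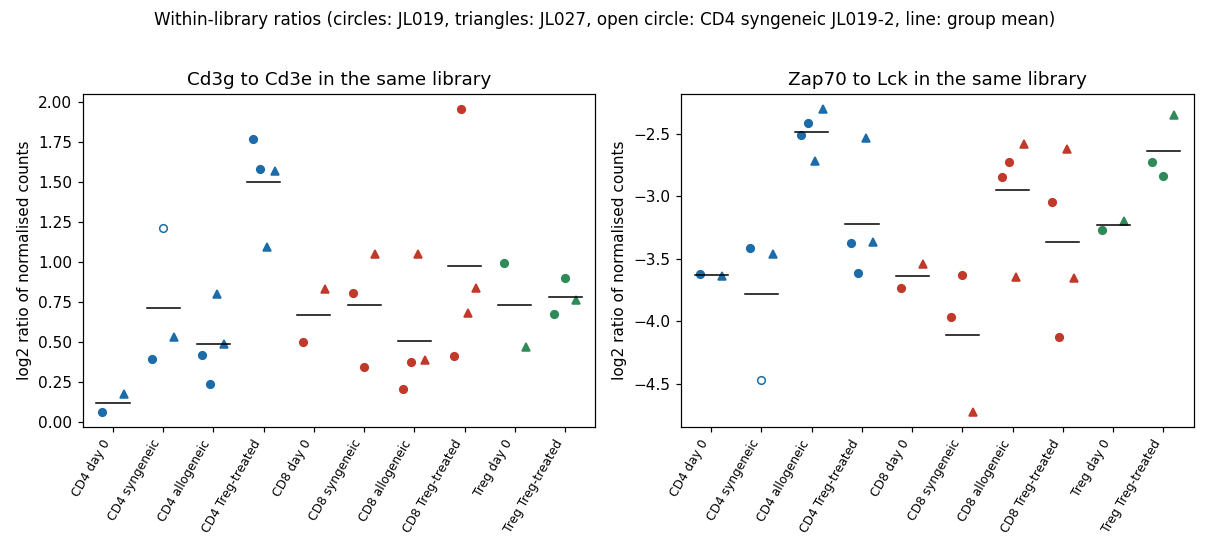
Log2 ratio of Cd3g to Cd3e and of Zap70 to Lck within each of 31 libraries by group; circles are JL019 and triangles JL027 libraries, lines are group means and the open circle is CD4 syngeneic JL019-2. The 4 CD4 Treg-treated libraries lie above the 4 CD4 allogeneic ones in the first panel (ratios 2.13 to 3.40 against 1.18 to 1.74), and CD4 allogeneic lies above CD4 syngeneic in the second (0.152 to 0.203 against 0.0450 to 0.0938).

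Libraries of the same group differed in a way that linked the members. Deviations of Cd3d and Cd3g from their group means went together (Pearson's r = 0.98, Spearman's rho = 0.98, 31 libraries, permutation p = 1e-05 within groups for each, the smallest that 100000 permutations can give, adjusted p = 0.00018 over 36 pairs of members). Those of Zap70 and Cd6 did likewise (r = 0.98, rho = 0.96, permutation p = 1e-05 for each, adjusted p = 0.00018), as did those of Lck and Cd5 (r = 0.95, rho = 0.85, permutation p = 2e-05 and 3e-05, adjusted p = 0.00024 and 0.00036). Without the 2 libraries farthest out these r were 0.98, 0.96 and 0.92. Cd3d and Cd6 went opposite ways once CD4 syngeneic JL019-2 was left out (r = -0.81, rho = -0.63, 30 libraries, permutation p = 0.00196 and 0.00639, adjusted p = 0.00763 and 0.0209; r = -0.70 without the 2 farthest), and with it r was -0.24 (permutation p = 0.394).

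A measure of the whole library moved with these deviations. The length trend of a library is the slope, over all genes, of its log2 deviation from the gene means per doubling of the genomic span of the gene, so a negative trend means that genes of short span read relatively high. It ranged from -0.124 (CD8 Treg-treated JL019-2) to 0.0835 (Treg day 0 JL019). Over the 30 libraries other than CD4 syngeneic JL019-2, deviations of Cd3d followed it with r = -0.96 and rho = -0.86 (permutation p = 2e-05 and 3e-05, adjusted p = 0.00022 and 0.000293 over 22 relations; r = -0.93 without the 2 farthest) and those of Cd3g with r = -0.93 and rho = -0.85 (permutation p = 3e-05 and 7e-05, adjusted p = 0.00022 and 0.000385; r = -0.90). Over all 31 libraries r was -0.70 for Cd3d and -0.61 for Cd3g (permutation p = 0.0123 and 0.0261), and -0.50 and -0.40 without the 2 farthest.

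Zap70 and Cd6 followed the trend in the other direction, with r = 0.73, rho = 0.73 and r = 0.72, rho = 0.68 over 31 libraries (permutation p = 0.00038 and 0.00125 for Zap70, 0.00142 and 0.00269 for Cd6; adjusted p = 0.00119, 0.00393, 0.00312 and 0.0074; r = 0.70 and 0.67 without the 2 farthest). Cd5 did not pass, with r = 0.36, rho = 0.12 and permutation p = 0.163 and 0.617 (adjusted p = 0.224 and 0.679). Members of nearly equal span could differ in this relation: Cd3g and Cd3e span 10860 and 10929 bases, and without CD4 syngeneic JL019-2 r was -0.93 for Cd3g and -0.52 for Cd3e (permutation p = 0.075). Without that library, Cd3d, of the shortest span (5284 bases), had the r of -0.96 given above, and Lat, of the next shortest (5879 bases), had r = -0.84 and rho = -0.62 (permutation p = 0.00058 and 0.00563, adjusted p = 0.0016 and 0.0126; r = -0.71 without the 2 farthest). Cd247, of the longest (91202 bases), had r = -0.67 and rho = -0.73 (permutation p = 0.00025 and 0.00023, adjusted p = 0.000917 and 0.000843; r = -0.73). Over all 31 libraries these r were -0.48 and 0.030 (permutation p = 0.0982 and 0.947).

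The trend also differed between the groups of the Treg comparison. It was 0.0194 to 0.0451 in the 4 CD4 allogeneic libraries, and -0.0986, -0.121, 0.0161 and -0.0688 in CD4 Treg-treated JL019-1, JL019-2, JL027-1 and JL027-2. JL027-1, whose trend was nearest to the untreated libraries, was also the Treg-treated library with the lowest Cd3d and Cd3g and the highest Cd6. With the trend removed from each library, the log2 change with Treg treatment was 0.66 for Cd3d (adjusted p = 0.065) and -1.15 for Cd6 (adjusted p = 0.056), and Cd3g was the 1 member still called. After quantile normalisation the change was 0.53 for Cd3g (adjusted p = 0.068) and 0.46 for Cd3d (adjusted p = 0.084), and Cd6 was the 1 member called. With libraries centred on their median, Cd6 missed the threshold (-1.07, adjusted p = 0.058). The part of the trend in these 3 changes was not tested beyond its removal. CD8 syngeneic and CD8 Treg-treated libraries, also among the highest in Cd3d and Cd3g, had trends of -0.105 to -0.00831 and -0.124 to 0.0149. The trend was 0.0117 to 0.0583 in CD8 cells on day 0 and -0.0179 to 0.0135 in CD8 allogeneic libraries. It was -0.0469 (JL019-2) to 0.0416 in CD4 syngeneic libraries. Its part in the values of these groups, Lck and Lat of CD8 syngeneic cells included, was not tested beyond its removal. The Cd3g to Cd3e ratio followed the trend as well (r = -0.82, rho = -0.82, 31 libraries, permutation p = 9e-05 and 4e-05, adjusted p = 0.000396 and 0.000293; r = -0.76 without the 2 farthest), and so did Zap70 to Lck (r = 0.88, rho = 0.82, permutation p = 3e-05 and 0.00016, adjusted p = 0.00022 and 0.000704; r = 0.84).

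**Figure D4:**
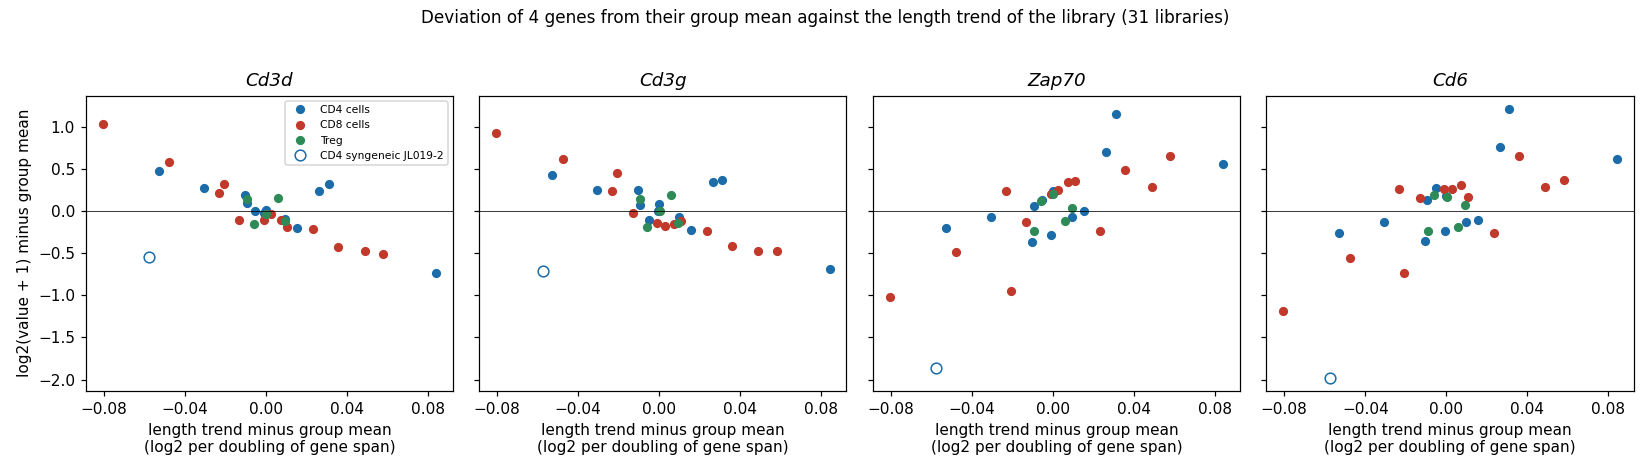
Deviation of log2(value + 1) from the group mean (y axis) against the deviation of the library's length trend from its group mean (x axis, log2 per doubling of gene span) for 4 genes in 31 libraries, coloured by cell type; the open circle is CD4 syngeneic JL019-2. Cd3d and Cd3g slope down and Zap70 and Cd6 slope up, and the open circle lies apart from the other points, low for its trend in Cd3d and Cd3g and lowest of all in Zap70 and Cd6.

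Against donor cells on day 0, the members of untreated allogeneic hosts were not called. In CD4 cells 0 of 9 members were called by limma, also 0 at an unadjusted p under 0.05, where 24.0% of all genes were. Zap70 stood at 3748 and 3422 normalised counts on day 0 and at 5802 to 8777 in allogeneic hosts, with no overlap (55.1% of all genes had none), a log2 change of 1.06 and an adjusted p of 0.16, which was 0.034 without CD4 syngeneic JL019-2. In CD8 cells 0 of 9 were called, again 0 at an unadjusted p under 0.05, where 30.4% of all genes were. Without CD4 syngeneic JL019-2, 2 members passed in CD4 cells and 1 in CD8 cells, where 27.0% and 34.1% of all genes were called.

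In syngeneic hosts, CD8 cells had more Lck and Lat than on day 0. Lck stood at 65425, 54974 and 69126 normalised counts against 30989 and 37596 on day 0. It rose by 0.88 ± 0.31 (SE) on the log2 scale, with a limma adjusted p of 0.042. Lat stood at 16835, 12204 and 21191 against 6426 and 7388 normalised counts. It rose by 1.24 ± 0.33 (SE), with an adjusted p of 0.0092, and neither gene overlapped between the groups.

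These 2 of 9 members compare with 24.2% of all genes called and 51.5% without overlap, and 4 were called without CD4 syngeneic JL019-2, where 29.4% of all genes were. The myeloid genes summed to 38594 to 62645 in syngeneic hosts and to 4314 to 5714 on day 0. Of 6 erythroid genes 2 were lower in syngeneic hosts and 0 higher (sums 2216 to 7354 against 21665 to 24780), and of 7 B cell genes 5 were lower and 1 higher, with sums of 3282 to 4075 against 2022 to 2713. Of 6 natural killer cell genes 2 were higher and 1 lower, with sums of 8103 to 9749 against 1750 to 2198. The part of these 4 lists was not tested. After quantile normalisation the log2 change of Lck was 0.16 (adjusted p = 0.80) and that of Lat 0.69 (adjusted p = 0.064). Lck also lost its call with only these groups in the model (adjusted p = 0.069) and without CD8 day 0 JL019 (adjusted p = 0.30), day 0 JL027 (0.065), syngeneic JL019-1 (0.093) or syngeneic JL027 (0.12), and Lat without day 0 JL019 (0.12) or syngeneic JL027 (0.052). In CD4 cells 0 of 9 were called by limma between syngeneic hosts and day 0, where 13.0% of all genes were, with 5 at an unadjusted p under 0.05. Without the library rich in myeloid genes Cd3e, for example, stood at 21298 and 18990 normalised counts against 27196 and 22924 on day 0.

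CD4, CD8 and Treg libraries whose titles share a group and number were read as cells of 1 host. The host was also fitted as a block with an estimated correlation of 0.145. On day 0 the titles share only the prefix JL019 or JL027, which was read as a donor for this block, though no label names one. Values with this block are given where a call differed. In allogeneic hosts the receptors Cd5 and Cd6 were lower in CD8 than in CD4 cells. Cd5 stood at 2024 to 3026 normalised counts in CD8 cells (median 2796, n = 4) and at 6021 to 7655 in CD4 cells (median 6965, n = 4). The log2 difference was -1.38 ± 0.28 (SE), 2.61-fold lower in CD8 cells, with a limma adjusted p of 0.0023. Cd6 stood at 2507 to 5159 against 11301 to 17424 normalised counts. Its log2 difference was -1.79 ± 0.45 (SE), 3.47-fold lower, with an adjusted p of 0.014, which was 0.066 without CD8 allogeneic JL027-1. Neither gene overlapped, and these 2 of 9 members compare with 6.15% of all genes called and 18.7% without overlap. The 6 natural killer cell genes summed to 85130 to 127962 in CD8 and 8453 to 16135 in CD4 cells (3 higher, 0 lower, median log2 change 0.79), and their part was not tested.

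In Treg-treated hosts Cd5 was again lower in CD8 cells, at 3903, 2517, 2910 and 3228 normalised counts against 7809, 7303, 6382 and 6582 in CD4 cells. Cd5 differed by -1.17 ± 0.28 (SE) on the log2 scale, with an adjusted p from limma of 0.0069 and no overlap, and Cd5 was the 1 member of 9 called, where 9.61% of all genes were called and 11.2% did not overlap. The 6 natural killer cell genes summed to 84836 to 225885 in CD8 and 4960 to 11647 in CD4 cells (2 higher, 0 lower, median log2 change 0.80), and their part was not tested. Cd6 differed by -1.11 with an adjusted p of 0.13, and passed at 0.015 without CD4 syngeneic JL019-2, when 3 members and 12.5% of all genes were called. On day 0, Cd5 stood at 3356 and 4391 normalised counts in CD8 and at 10408 and 9297 in CD4 cells, a log2 difference of -1.36 with an adjusted p of 0.062. It was 0.031 with the host block, in which the prefix was read as a donor, and 9.8e-05 without CD4 syngeneic JL019-2. With all libraries 0 of 9 members were called on day 0 by limma, 1 at an unadjusted p under 0.05, where 3.32% of all genes were called.

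In syngeneic hosts it was Cd3d and Lck that were called between CD8 and CD4 cells, and both were higher in CD8 cells. Lck stood at 54974 to 69126 normalised counts in CD8 and at 46069, 11866 and 34660 in CD4 cells. Lck differed by 1.24 ± 0.28 (SE) on the log2 scale, with an adjusted p from limma of 0.0035, and 0.65 (adjusted p = 0.022) without CD4 syngeneic JL019-2, the lowest CD4 value. Cd3d stood at 31999, 24698 and 51602 against 17396, 9565 and 16419 normalised counts, a log2 difference of 1.30 ± 0.33 (SE, adjusted p = 0.0089), and 1.03 (adjusted p = 0.064) without that library or 1.01 (adjusted p = 0.087) without CD8 syngeneic JL027. Lck lost its call after quantile normalisation (0.84, adjusted p = 0.13), and both lost theirs with only these groups in the model (adjusted p = 0.29 for Lck and 0.16 for Cd3d). Of all genes 12.0% were called and 24.7% did not overlap, against 2 of 9 members called. With the host as a block 4 were called, where 15.8% of all genes were, with Cd3e (0.78, adjusted p = 0.044) and Lat (0.84, adjusted p = 0.031) added. With CD4 syngeneic JL019-2 left out, and no block, these were 0.18 (adjusted p = 0.55) and 0.49 (adjusted p = 0.30). Of the 10 myeloid genes 4 were lower in CD8 cells and 0 higher (10 at an unadjusted p under 0.05 by limma), with sums of 38594 to 62645 against 80188 to 3632120. Of the 6 natural killer cell genes 4 were higher and 0 lower, with sums of 8103 to 9749 against 1473 to 43801, and the part of both lists was not tested. Cd5 overlapped here only through that library, at 5768 to 6419 in CD8 and 7875, 1808 and 8057 in CD4 cells.

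In Treg-treated hosts, the libraries labelled Treg differed from CD4 cells in 4 of 9 members, 2 higher and 2 lower, where 30.0% of all genes were called, 13.9% higher and 16.1% lower, and 36.5% did not overlap. Cd6 was higher, at 19401, 15586 and 20605 normalised counts against 4993 to 9184, and differed by 1.63 ± 0.49 (SE) on the log2 scale (adjusted p from limma 0.014). Cd5 was higher, at 13174, 12084 and 11906 against 6382 to 7809, with a log2 difference of 0.82 ± 0.31 (SE, adjusted p = 0.043). Neither overlapped. Cd3g was lower, at 23998, 29225 and 26386 against 35394 to 76375 normalised counts without overlap, with a log2 difference of -1.10 ± 0.31 (SE, adjusted p = 0.01). Cd3d was lower, at 19069 to 22918 against 21930 to 50822, with overlap, by -0.82 ± 0.31 (SE, adjusted p = 0.046).

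The CD4 libraries of this comparison are those whose length trend ran low, and the trend was 0.0387 to 0.0572 in the 3 libraries labelled Treg. With the trend removed Cd3d (adjusted p = 0.093) and Cd5 (adjusted p = 0.051) were no longer called. Cd3d also lost its call after quantile normalisation (-0.47, adjusted p = 0.093) and with only these groups in the model (adjusted p = 0.051). Cd5 also lost it with libraries centred on their median (0.61, adjusted p = 0.13) and with prefix and number as a block (0.65, adjusted p = 0.12), and kept it with the host as a block (0.81, adjusted p = 0.032), where Lat (-0.69, adjusted p = 0.037) and 35.2% of all genes were called too. Cd5 lost its call without any 1 of the 7 libraries (adjusted p 0.061 to 0.12), Cd3d without any but CD4 Treg-treated JL027-1 (0.071 to 0.15), and Cd6 without the library labelled Treg JL027 (0.051). Without CD4 syngeneic JL019-2 in the model, 8 of 9 members were called, where 35.0% of all genes were. Of the 10 myeloid genes 3 were higher and 5 lower in the libraries labelled Treg, with sums of 3312 to 8800 against 24532 to 88098, and their part was not tested. The values against CD4 cells share their 4 CD4 Treg-treated libraries with the Treg treatment comparison above.

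Against day 0, the libraries labelled Treg had 0 of 9 members called by limma, also 0 at an unadjusted p under 0.05, where 13.3% of all genes were. Cd6 stood at 10490 and 13573 normalised counts on day 0 and at 15586 to 20605 later, without overlap, as did 50.9% of all genes. Against CD4 cells on day 0 they again had 0 of 9 called, and 0 at an unadjusted p under 0.05, where 3.89% of all genes were. Cd3e was 14788 and 16471 against 27196 and 22924 normalised counts in CD4 cells, Cd5 was 9449 and 11254 against 10408 and 9297, and Cd3e but not Cd5 was without overlap, as were 60.2% of all genes. Cd3e was the 1 member called there once CD4 syngeneic JL019-2 was left out, where 5.90% of all genes were.

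Other genes around the receptor were followed in 3 lists. Of 27 measured genes of positive proximal signalling, 5 were higher and 6 lower in CD4 cells of allogeneic than of syngeneic hosts, where 6.69% of all genes were higher and 7.91% lower, with a median log2 change of 0.36 against -0.0014 for all genes. Without CD4 syngeneic JL019-2 these counts were 1 and 7, where 10.9% of all genes were called, and the median was -0.07. The costimulatory receptor gene Cd28 was higher (1.66 ± 0.28, SE; 1.13 without that library), as was the kinase gene Prkcq (1.53 ± 0.40; 0.64 and no longer called). The kinase gene Tec was lower (-1.82 ± 0.17; -1.85), and so was Cd8b1 (-1.65 ± 0.35; -1.08), a coreceptor chain of CD8 cells, with 462 ± 100 and 1694 ± 1272 normalised counts (SD, n = 4 and 3) in these CD4 libraries.

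In CD8 cells the same list had 1 member higher and 6 lower in allogeneic hosts, where 10.4% of all genes were higher and 10.7% lower, with a median log2 change of -0.37 (all genes 0.017). The counts were 3 and 10 without CD4 syngeneic JL019-2 in the model, where 25.0% of all genes were called. The 1 higher was Cd28 (0.99 ± 0.28, SE), and the kinase gene Txk was lower by -1.76 ± 0.27, from 9240 ± 895 to 2733 ± 353 normalised counts (SD, n = 3 and 4). Of 23 negative regulators, 8 were higher and 1 lower in CD4 cells, where 6.69% of all genes were higher and 7.91% lower. In CD8 cells 5 were higher and 5 lower, where 10.4% and 10.7% of all genes were. Without that library these counts were 5 and 3 in CD4 cells, where 10.9% of all genes were called. They were 6 and 5 in CD8 cells, where 25.0% were called. Ptpn22, a phosphatase that acts on Lck and Zap70, was higher in both, by 2.17 ± 0.28 (SE; 1.66 without CD4 syngeneic JL019-2) in CD4 and 1.16 ± 0.28 in CD8 cells. Sla, an adaptor that lowers TCR levels, was higher in CD4 cells (1.60 ± 0.21; 1.42 without CD4 syngeneic JL019-2), where Ubash3b was lower (-1.45 ± 0.29; -1.45). In CD8 cells Dusp22 was higher (2.04 ± 0.39), and the phosphatase gene Ptpn6 (-1.09 ± 0.18) and Sh2b3 (-1.45 ± 0.35) were lower, as was Tec (-0.93 ± 0.17). Of 4 measured TCR constant region genes, 0 were called in CD4 cells (0 at an unadjusted p under 0.05) and 1 in CD8 cells, Trdc, the constant region of the delta chain of another receptor type, at -1.50 ± 0.49. Each gene named here from the lists had a limma adjusted p under 0.05 with all libraries.

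With Treg treatment in CD4 cells, 0 of the 27 positive genes were higher and 4 were lower, and 0 of the 23 negative regulators were higher and 6 lower, where 10.7% of all genes were higher and 11.5% lower, with median log2 changes of -0.12 and -0.37 (all genes -0.0018). Without CD4 syngeneic JL019-2 in the model these counts were 2 and 7, and 0 and 7, where 28.6% of all genes were called. Vav1, an exchange factor downstream of Zap70, was lower (-1.07 ± 0.30, SE), as were Sos1 (-1.55 ± 0.44) and the ubiquitin ligase genes Cbl (-1.70 ± 0.42) and Itch (-0.80 ± 0.23). With the length trend removed, when 1656 of all 16741 genes were higher and 1663 lower, the positive list had 2 higher and 3 lower, the negative list 0 and 6, and Vav1 was -0.92 and Cbl -1.47. Of the 4 TCR constant region genes, 2 were higher and 0 lower: Trbc2 by 0.95 ± 0.25 (62469 ± 16784 against 31406 ± 3832 normalised counts, SD, n = 4 each) and Trbc1 by 0.76 ± 0.27, which were 0.61 and 0.41 with the trend removed, Trbc1 then not called. In CD8 cells none of the 27, 23 and 4 genes were called by limma, with 3, 1 and 0 at an unadjusted p under 0.05.

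Over the 10 group means of log2(value + 1), each member was compared with every gene other than predicted genes, receptor segments, mitochondrial and ribosomal protein genes. The closest patterns were Mettl23 for Cd3d (Pearson's r = 0.96), Idnk for Cd3g (0.92), Tbc1d10c for Cd3e (0.94), Mtg2 for Cd247 (0.87), Septin1 for Lck (0.95), Ptk2b for Zap70 (0.91), Commd7 for Lat (0.91), Dsel for Cd5 (0.94) and Ttc38 for Cd6 (0.95). These r are the highest of many and describe 10 points that share the CD4 syngeneic mean: without JL019-2 they were 0.72 for Tbc1d10c and 0.59 for Mtg2, and 0.79 to 0.97 for the other 7. Among the members themselves, Cd3d and Cd3g were each other's closest (0.91), as were Cd5 and Cd6 (0.87).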

How the data were processed

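The 9 genes, the lists and the tests were chosen with earlier results of these data known. The deposited table holds signal, read here as estimated counts that the authors scaled between libraries: no header states it, but the mean of the 31 library columns equals the deposited base mean. The submitters' processing notes name kallisto, DESeq2, FastQC 0.11.7 and GRCm38 (mm10), with no roles. Values are not whole, so the depth is unknown. Per the labels' protocols, cDNA came from a SMARTer kit (full length) and libraries from Nextera XT. The authors' deposited fold changes and p-values name no groups and were not used, nor were the TCR tables.

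Analysis used log2(value + 1) and limma 3.58.1 (R 4.3.3; trend and robust options), a group-means model and 17 contrasts. A minimum mean of 1 removed no gene. Simulated data with 200 changed genes, for CD8 allogeneic against syngeneic (16741 genes), gave back 79 of 100 log2 changes of 2, 24 of 100 of 1, and 5 false calls. Ratios were tested by exact permutation (scipy 1.17.1). Named pathway genes were, per list and comparison, up to 2 called genes per direction with the lowest p. Genomic spans were known for 94.7% of genes. Alternatives were a pseudocount of 0.1, a minimum mean of 10, median centring, quantile normalisation, length trend removal, replicate blocks (the host pairing comes from shared titles, which join cell types within a host only), only the groups compared, and leaving out each library. Leaving CD4 syngeneic JL019-2 out of the model for comparisons that do not include it, and the list counts without it or with the length trend removed, were chosen after seeing the data.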

Additional observations from a re-analysis of the deposited data

Results flagged for a closer look

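The 9 genes in the 4 groups of 4 libraries gave 36 sets of values from the same 16 libraries, and in 6 sets 1 library lay far from the other 3. Chance gives about 1 in 20 for a single set, but the genes vary together, so the sets are not independent and the count of 6 is not set against that rate. CD8 allogeneic JL027-1 did so for 3 genes: Cd3g at 35281 normalised counts (others 22866 to 23688), Zap70 at 2605 (others 5980 to 6449) and Lat at 6927 (others 8130 to 8378). CD4 Treg-treated JL027-1 did so for Cd247, at 12033 (others 13611 to 13861), and for Cd6, at 9184 (others 4993 to 5435). CD8 Treg-treated JL019-2 did so for Cd3d, at 56012 (others 19250 to 25432). Its length trend, -0.124, was the lowest of all libraries, those of the 2 JL027-1 libraries were -0.0179, the lowest of the CD8 allogeneic group, and 0.0161, the highest of the CD4 Treg-treated group, and its part in these values was not tested.

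The difference between allogeneic and syngeneic hosts differed between CD8 and CD4 cells by an interaction term in limma for Lck (-1.34), Cd5 (-1.70) and Cd6 (-2.41, all on the log2 scale), as given above with its values without CD4 syngeneic JL019-2.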

How the results depend on the processing

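Of 153 member values 20 were called, and 0 of these changed sign under any alternative run. Only 4 kept their call under every one: Cd5 in CD8 allogeneic against syngeneic, and against CD4 in allogeneic and in Treg-treated hosts, and Cd3g in libraries labelled Treg against CD4. Of the 133 not called, 49 changed sign and 37 passed under some alternative. A pseudocount of 0.1 and a minimum mean of 10 lost 0 calls and gained 0. The depth is unknown, and each day 0 group rests on 2 libraries. The cause of each shift below was not tested. Calls over all genes moved under these settings too, so a shift in the members called is not by itself a result about the members.

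With libraries centred on their median, members called went from 1 to 2 in CD4 allogeneic against syngeneic, from 0 to 2 in CD4 syngeneic against day 0, from 0 to 1 in CD8 against CD4 on day 0 and from 2 to 4 in CD8 against CD4 in syngeneic hosts. With quantile normalisation they went from 3 to 1 in CD4 Treg-treated against allogeneic, from 0 to 1 in CD4 and in CD8 allogeneic against day 0, from 0 to 4 in CD4 syngeneic against day 0, from 2 to 0 in CD8 syngeneic against day 0, from 0 to 1 in CD8 against CD4 on day 0, from 2 to 1 in syngeneic hosts, and from 3 to 1 for the difference of CD8 from CD4 between allogeneic and syngeneic hosts. With the length trend removed they went from 3 to 1 in CD4 Treg-treated against allogeneic and from 0 to 1 in CD4 syngeneic against day 0. Over all genes, quantile normalisation called 3081 in CD4 syngeneic against day 0, where the main fit called 2181.

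With only the groups compared in the model, members called were 0 in CD4 and 4 in CD8 allogeneic against syngeneic, 2 in CD4 and 1 in CD8 allogeneic against day 0, 1 in CD8 syngeneic against day 0, 2 in the libraries labelled Treg against day 0, 3 in these against CD4 on day 0, 2 in CD8 against CD4 on day 0, 0 in syngeneic hosts, and 0 for the difference of CD8 from CD4. Of all genes, 1101 were then called in CD4 allogeneic against syngeneic (2445 in the main fit) and 6636 (4013) in CD4 allogeneic against day 0. In the libraries labelled Treg they were 3994 (2231) against day 0 and 2081 (651) against CD4 on day 0. For CD8 against CD4 they were 1802 (556) on day 0, 282 (2001) in syngeneic hosts and 494 (779) for the difference.

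Libraries whose titles share a host, or on day 0 a prefix read as a donor (21 pairs of cell types), had correlations of deviations from -0.319 to 0.442. Their median was 0.135, with 11 over 0.1, against a median of -0.0241 over 56 other pairs. Deviations within a group of 2 libraries mirror each other, so each day 0 value, both ends of that range included, recurs with reversed sign among the other pairs. The medians are thus partly fixed by the centring, and nothing is concluded from them. Libraries of 1 cell type from differently treated hosts share a number and no host. With the prefix as a replicate block 0 calls were lost and 0 gained. With prefix and number as a replicate block 3 were lost and 2 gained, leaving 1 member called in CD8 allogeneic against syngeneic (Lat was -0.80, adjusted p = 0.063), 1 in CD8 syngeneic against day 0 (Lck was 0.97, adjusted p = 0.083) and 1 in CD8 against CD4 on day 0. With the recipient as a replicate block 0 were lost and 5 gained, giving 1 in CD8 against CD4 on day 0 and 4 in syngeneic hosts; it changed no other call than the 5 given in the report.

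Leaving out 1 library gave 0 to 5 members called in CD4 and 1 to 4 in CD8 allogeneic against syngeneic, 0 to 4 in CD4 Treg-treated against allogeneic, 0 to 2 in CD4 and 0 to 1 in CD8 allogeneic against day 0, 0 to 5 in CD4 and 0 to 4 in CD8 syngeneic against day 0, 0 to 1 in libraries labelled Treg against CD4 on day 0 and 1 to 8 in Treg-treated hosts, and, for CD8 against CD4, 0 to 1 on day 0, 1 to 5 in syngeneic, 1 to 2 in allogeneic and 1 to 4 in Treg-treated hosts, and 0 to 6 for the difference between allogeneic and syngeneic hosts. A group left with 1 library is assumed to vary like the others. The ranges over all genes given last leave out only libraries of the groups compared. In the model without CD4 syngeneic JL019-2, some counts lay above those ranges. There were 78 calls for Treg treatment in CD8 cells, 5717 in CD8 allogeneic against day 0 and 4930 in CD8 syngeneic against day 0.

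Within JL027 the log2 ratio of Cd247 to Cd3e turned to 0.10 in CD4 and 0.025 in CD8 allogeneic against syngeneic, that of Cd3d to Cd3e to 0.32 in CD4 allogeneic against syngeneic and -0.080 in CD8 Treg-treated against allogeneic, and that of Cd3g to Cd3e to 0.11 in CD4 allogeneic against syngeneic. Without 1 library these 5 ran from -0.074 to 0.045, -0.17 to 0.060, -0.25 to 0.27, -0.065 to 0.49 and -0.38 to 0.025.

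Over all genes, calls moved by over 1.5 times under some alternative in every comparison except CD8 allogeneic against syngeneic: 2445 (1101 to 2690) in CD4 allogeneic against syngeneic, 3710 (470 to 5633) and 11 (0 to 63) for Treg treatment in CD4 and CD8, 4013 (1962 to 6636) and 5097 (2591 to 5186) in allogeneic against day 0, 2181 (235 to 3081) and 4053 (1001 to 4869) in syngeneic against day 0, 2231 (1088 to 3994) in the libraries labelled Treg against day 0, 651 (261 to 2081) and 5016 (3119 to 6377) in these against CD4 on day 0 and in Treg-treated hosts, 556 (266 to 1802), 2001 (282 to 2650), 1029 (661 to 1802) and 1609 (715 to 2990) in CD8 against CD4 on day 0 and in syngeneic, allogeneic and Treg-treated hosts, 779 (494 to 1123) and 1 (0 to 2) for the 2 differences of CD8 from CD4, as count (lowest to highest).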
